A study of Homo sapiens with 4 samples.

Results

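The Hippo pathway was examined in FaDu cells through 10 genes chosen by name, for their roles and not by a threshold on values, among the 60649 gene rows of the count table. They are the coactivator gene WWTR1, the transcription factor genes TEAD1, TEAD3 and TEAD4, the kinase genes LATS1 and LATS2, and the target genes CCN1, CCN2, ANKRD1 and AMOTL2. Earlier results of these data were known when they were chosen. FaDu is an established head and neck squamous carcinoma line of human origin. The 4 RNA-sequencing libraries came from cells grown in MEM alpha with fetal bovine serum, 2 with an empty vector and 2 with TINCR-HA-FLAG, a TINCR construct carrying the HA and FLAG epitope tags. The empty vector cells are the control, so a vector was present in both groups. Neither the promoter of the construct nor whether the cells were a clone or a pool is stated in the labels. The series calls the replicates technical, so every p-value here reflects the spread between libraries, which may be technical alone.

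In the Hippo pathway a chain of kinases that ends in LATS1 and LATS2 phosphorylates the coactivators YAP1 and TAZ, the product of WWTR1, and so keeps them out of the nucleus. When they are not phosphorylated, YAP1 and TAZ bind the TEAD factors, which carry the DNA-binding domain, and switch on genes such as CCN1, CCN2, ANKRD1 and AMOTL2. LATS2 and AMOTL2 are both regulators and targets, so they form feedback loops. In squamous epithelium and its carcinomas the pathway is known for linking cell contact, tension and growth. In bulk RNA, fewer cells with a transcript and less of it per cell cannot be told apart.

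Total counts ranged from 17069533 to 22331602 per library. Reads of mitochondrial genes took 7.58% to 9.43% of the empty vector libraries and 8.66% to 11.4% of the TINCR-HA-FLAG libraries. TINCR itself had 68 and 64 counts in the control and 1921 and 2943 counts in cells with the construct, as the labels state. All 8 squamous epithelial markers were above 1 CPM (the count scaled to library size, with TMM factors) in at least 1 library, and they summed to 8289 and 9477 CPM in the control and to 7127 and 8330 CPM with TINCR-HA-FLAG. Of 8 fibroblast markers 5 reached 1 CPM, led by COL1A1, and the sums were 42.6 to 46.6 CPM in the control and 51.4 to 51.5 CPM with TINCR-HA-FLAG. Of 4 endothelial markers only VWF reached 1 CPM, with sums of 10.6 to 11.2 CPM and 13.5 to 14.2 CPM, and of 5 leukocyte markers only CD14, with sums of 8.23 to 8.85 CPM and 6.25 to 9.56 CPM. None of the 25 markers was at 0 in all libraries, and their part in the results was not tested.

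The recognition sequence of TEAD factors, GGAATG, was looked for on both strands in the 250 bases before each annotated start, since TEAD factors are the DNA-binding part of the pathway. Windows were found for 7 of the 10 members in RefSeq (GRCh38.p14), and those of CCN2, ANKRD1 and AMOTL2 held the motif. The CCN2 window, up to the first exon, and 30 bases around each match of ANKRD1 and AMOTL2 are shown because they hold every match among the members. They are printed 5′ to 3′ on the strand of the gene, which is the minus strand for all of them, with the matches in capitals. CCN2 spans chr6:131951374-131951622, the ANKRD1 sites chr10:90921290-90921319 and chr10:90921198-90921227, and the AMOTL2 site chr3:134374499-134374528.
CCN2: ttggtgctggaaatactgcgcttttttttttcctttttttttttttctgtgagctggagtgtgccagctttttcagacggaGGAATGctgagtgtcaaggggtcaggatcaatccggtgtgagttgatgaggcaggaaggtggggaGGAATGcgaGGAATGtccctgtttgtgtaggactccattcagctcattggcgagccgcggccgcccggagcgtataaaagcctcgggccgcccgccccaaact
ANKRD1, far site: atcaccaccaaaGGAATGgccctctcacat
ANKRD1, near site: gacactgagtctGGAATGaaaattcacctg
AMOTL2: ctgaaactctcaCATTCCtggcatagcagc

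CCN2 had 3 matches, with 2 of them close together at 90 to 95 and 99 to 104 bases before the start and the other at 164 to 169. ANKRD1 had 2, at 123 to 128 and 215 to 220 bases. AMOTL2 had 1 on the opposite strand, at 64 to 69 bases, where it reads CATTCC. GENCODE 29 places the near ANKRD1 site and the AMOTL2 site in a 5′ UTR exon of a transcript that starts further upstream, and the other matches before the first exon. Of 35116 windows of this length, 11.89% held at least 1 match, 0.94% at least 2 and 0.083% at least 3. The windows of WWTR1, TEAD3, LATS1 and LATS2, and the other window of AMOTL2, held none. TGANTCA, a recognition sequence of AP-1 factors, which often bind beside TEAD, was found once in the ANKRD1 window and once in 1 of the 2 LATS1 windows, against 6.57% of all windows, with no overlap with GGAATG. TEAD1, TEAD4 and CCN1 were not matched. A match describes the letters of the window and not binding.

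**Figure D1:**
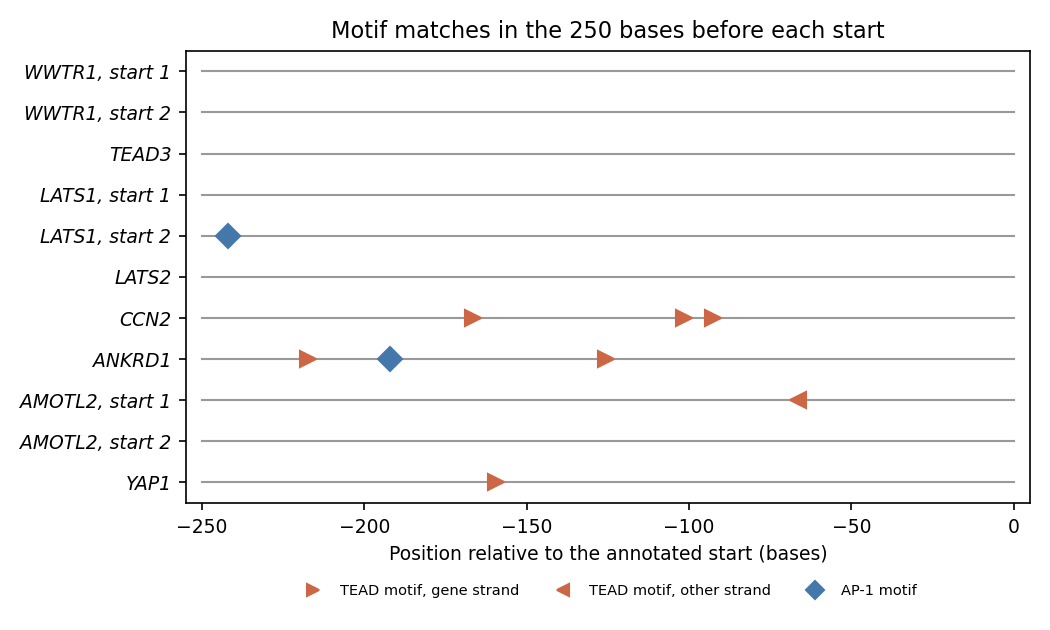
Each line is the window of 250 bases before an annotated start, with the distance from the start in bases on the x axis, for members with a RefSeq window and for YAP1. Orange triangles mark the TEAD motif, pointing right on the strand of the gene, and blue diamonds the AP-1 motif. The 3 matches of CCN2 lie between 90 and 169 bases before its start.

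Expression levels of the members covered a wide range. Per kilobase of exon (CPM per kb, averaged over the 4 libraries), CCN1 was highest at 52.97. TEAD4 at 23.2, AMOTL2 at 22.6 and TEAD3 at 20.2 followed, and their ranges over libraries (17.6 to 26.9, 19.3 to 24.95 and 19.8 to 21.3) overlapped. TEAD1 had 13.97, LATS1 11.3 and WWTR1 8.07, and the ranges of these neighbours (13.02 to 15.3, 10.75 to 11.7 and 7.06 to 9.19) did not overlap. CCN2 at 6.03 (4.99 to 7.88) overlapped with WWTR1 above it and with LATS2 at 5.72 (5.21 to 6.59) below it. With the longest transcript as length, WWTR1 at 13.5 stood above LATS1 at 12.99.

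No member passed the test. Of the 10 members, 9 passed the filter on low counts, and 0 had an edgeR adjusted p under 0.05 against a background of 0.549% of the 18771 genes tested (0.453% higher and 0.0959% lower with TINCR-HA-FLAG). DESeq2 called 0 as well, beside 1% of all genes (188). Before adjustment 4 of the 9 were under 0.05 in edgeR, beside 10.2% of all genes (1913). The median log2 fold change of the 9 was 0.18, against 0.004 for all genes tested. Of the 9, 8 were positive, beside 9518 of the 18771 genes tested. Both TINCR-HA-FLAG libraries lay above both empty vector libraries for 5 members and below them for 1, while 21.7% and 17.9% of all genes tested did so (39.6% in all). The 95% intervals below are not adjusted for the number of genes.

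**Figure D2:**
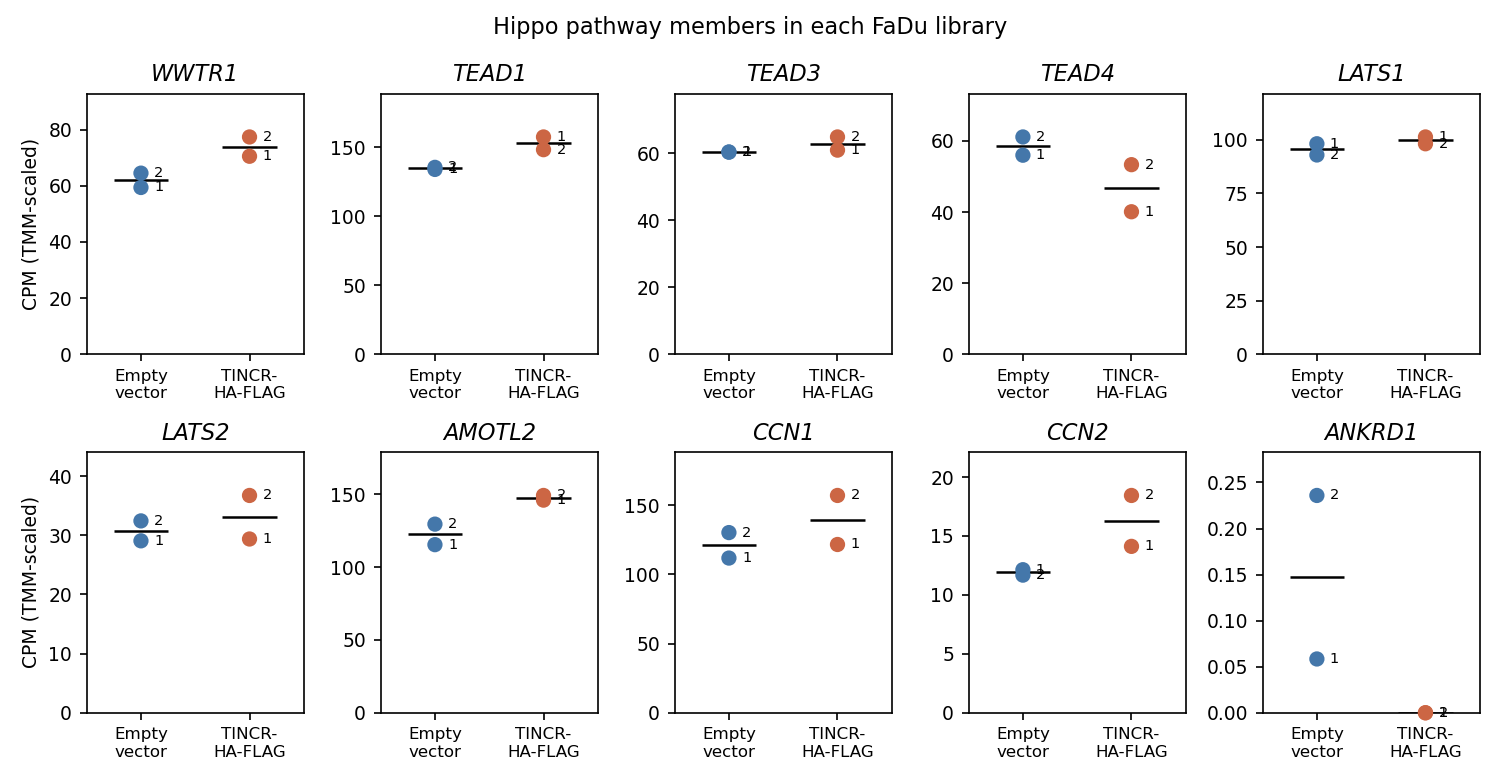
Each panel shows 1 member, with CPM on the y axis from 0 and a point for each library (numbered by replicate), blue for empty vector and orange for TINCR-HA-FLAG; lines are means and each panel has its own scale. For WWTR1, TEAD1, TEAD3, AMOTL2 and CCN2 the orange points lie above the blue ones, for TEAD4 below, and ANKRD1 is at most 0.24 CPM.

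WWTR1, the gene of the coactivator TAZ (ENSG00000018408.15, chr3:149517235-149736714, minus strand) had 59.4 and 64.5 CPM in the empty vector libraries and 70.5 and 77.3 CPM in the TINCR-HA-FLAG libraries. The groups did not overlap, and within each group the replicates differed by a ratio of 1.09 to 1.10. The log2 fold change was 0.26 (SE 0.11, 95% interval 0.02 to 0.50, adjusted p = 0.45), and without empty vector replicate 1 it was 0.16. YAP1, the paralog of WWTR1 and not among the 10 genes, had 245 and 264 CPM against 151 and 163 CPM. It fell by 0.70 on the log2 scale (SE 0.11, adjusted p = 0.025), but the adjusted p was above 0.05 when the second control library was left out (0.069) or when low counts were kept in (0.059).

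The share of WWTR1 in the summed counts per kilobase of YAP1 and WWTR1 was 15.3% and 15.45% in the control and 25.9% and 26.2% with TINCR-HA-FLAG. That is a mean of 15.4% ± 0.07 against 26.04% ± 0.16 (SD, n = 2 per group). The gap between groups was thus far larger than the spread between replicates, which may be technical alone. The share depends on both genes, with log2 fold changes of -0.70 for YAP1 and 0.26 for WWTR1, which was not called. However, the exact two-sided permutation test with n = 2 per group cannot go below p = 0.33, the value found (adjusted p = 0.45 over 23 shares and ratios). The sum of YAP1 and WWTR1 was 45.99 and 49.6 CPM per kb in the control and 32.3 and 35.1 with TINCR-HA-FLAG. With the longest transcript as length the shares were 20.6% and 20.8% against 33.4% and 33.7%.

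The TEAD genes encode the DNA-binding partners, and none of the 4 was called. TEAD1 (ENSG00000187079.20, chr11:12674591-12944483, plus strand) had 134 and 135 CPM in the control and 157 and 148 CPM with TINCR-HA-FLAG. Both TINCR-HA-FLAG libraries were higher, with a log2 fold change of 0.18 (SE 0.10, 95% interval -0.04 to 0.41, adjusted p = 0.61). TEAD3 (ENSG00000007866.22, chr6:35473597-35497076, minus strand) had 60.36 and 60.34 CPM against 60.93 and 64.9 CPM. These values were close in all 4 libraries, and the log2 fold change was 0.06 (95% interval -0.17 to 0.29, adjusted p = 0.91).

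TEAD4 (ENSG00000197905.10, chr12:2959330-3040673, plus strand) was the 1 tested member with a negative value. It had 55.98 and 61.1 CPM in the control and 40.1 and 53.3 CPM with TINCR-HA-FLAG, so both TINCR-HA-FLAG libraries were lower, but they differed from each other by a ratio of 1.33. The log2 fold change was -0.32 (SE 0.14, 95% interval -0.63 to -0.01, adjusted p = 0.47). Leaving out TINCR-HA-FLAG replicate 2 gave -0.55 (adjusted p = 0.026), and leaving out replicate 1 gave -0.13 (adjusted p = 0.88). Each of these fits has 1 TINCR-HA-FLAG library, which is assumed to vary like the empty vector libraries, and the first of them called 386 genes in all, against 103 with all libraries. Replicate 1 was the library with the highest mitochondrial share, 11.4%, whose part in the result was not tested. TEAD2, the remaining paralog, had 20.6 and 24.5 CPM against 23.6 and 26.8 CPM (log2 fold change 0.17, adjusted p = 0.78).

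As shares of the family's counts per kilobase, TEAD4 took 38.3% and 39.5% in the control and 28.98% and 34.4% with TINCR-HA-FLAG. TEAD1 took 20.2% and 19.3% against 25.1% and 21.1%, TEAD3 30.8% and 29.1% against 32.9% and 31.2%, and TEAD2 10.7% and 12.1% against 13.02% and 13.2%. TEAD4 was thus the most abundant TEAD transcript in both empty vector libraries, and TEAD3 came before it in TINCR-HA-FLAG replicate 1. With the longest transcript as length TEAD4 remained first in every library, at 32.8% to 43.9%. The groups did not overlap for these 4 shares, each at the smallest exact permutation p, 0.33 (adjusted p = 0.45). Shares of 1 family depend on each other, since a lower share of TEAD4 raises the others, so these are not 4 separate results. Of the 23 shares and ratios, 17 were at this smallest p. The sum of the family was 64.4 and 68.1 CPM per kb in the control and 60.9 and 68.2 with TINCR-HA-FLAG, which overlap.

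**Figure D3:**
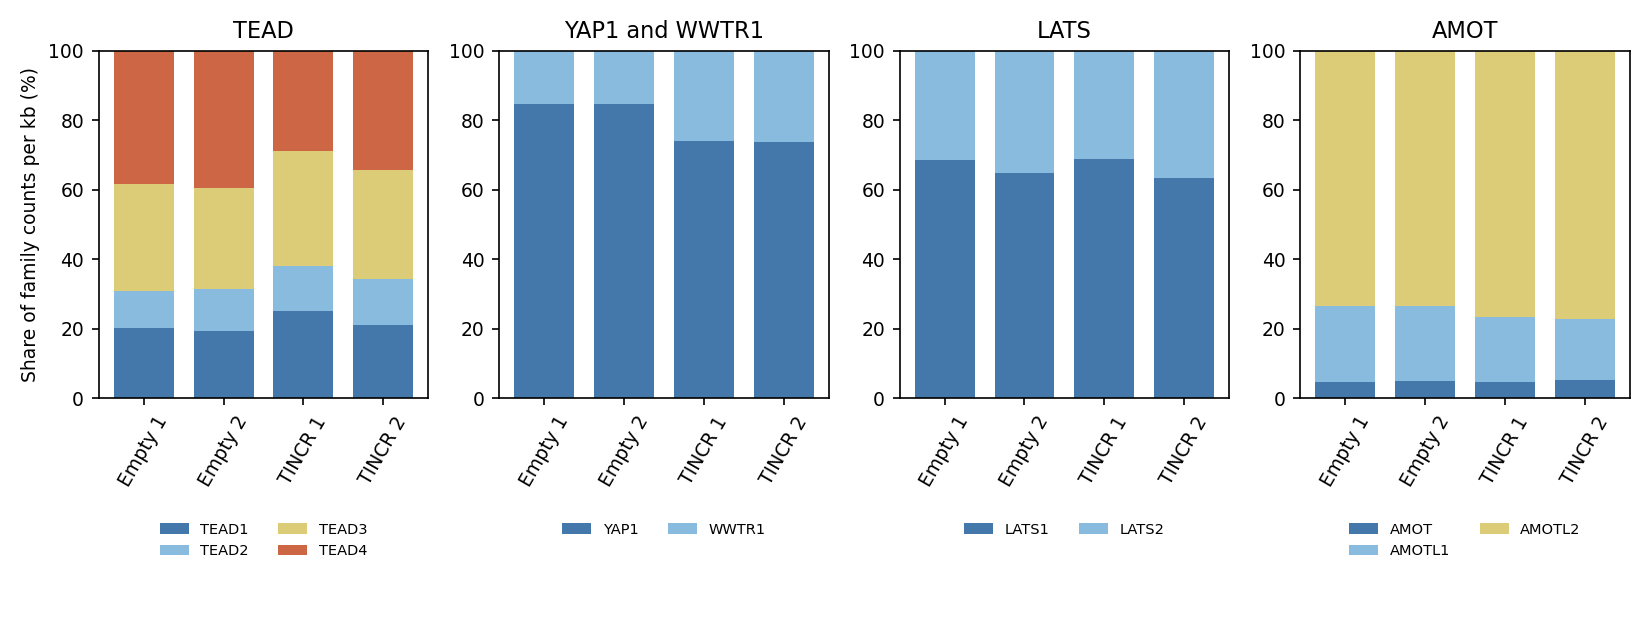
Stacked bars give the share (%) of each paralog in the counts per kilobase of its family, 1 bar for each library. WWTR1 takes 15.3% to 15.45% of its pair in the control and 25.9% to 26.2% with TINCR-HA-FLAG, while the LATS shares overlap between groups.

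LATS1 and LATS2, the kinases that phosphorylate YAP1 and TAZ, overlapped between groups. LATS1 (ENSG00000131023.13, chr6:149658153-149718256, minus strand) had 98.1 and 92.9 CPM in the control and 101.3 and 98.1 CPM with TINCR-HA-FLAG. Its log2 fold change was 0.06 (SE 0.10, 95% interval -0.16 to 0.28, adjusted p = 0.90), so the interval reaches from 0.89-fold to 1.22-fold. LATS2 (ENSG00000150457.9, chr13:20973032-21061547, minus strand) had 29.1 and 32.4 CPM against 29.4 and 36.7 CPM. Its log2 fold change was 0.11 (SE 0.14, 95% interval -0.20 to 0.42, adjusted p = 0.87), and it turned to -0.01 when the first control library was left out and to -0.07 when the second TINCR-HA-FLAG library was. LATS1 made up 68.5% and 64.9% of the counts per kilobase of the pair in the control and 68.99% and 63.3% with TINCR-HA-FLAG.

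AMOTL2, a junction scaffold of the angiomotin family that binds YAP1, is also a YAP1 and TEAD target (ENSG00000114019.15, chr3:134355874-134375479, minus strand). It had 115.5 and 129.6 CPM in the control and 146 and 149 CPM with TINCR-HA-FLAG. Both TINCR-HA-FLAG libraries were higher, by a log2 fold change of 0.27 (SE 0.11, 95% interval 0.04 to 0.50, adjusted p = 0.41), and without empty vector replicate 1 the value was 0.15. Its paralog AMOTL1 had 57.9 and 63.4 CPM against 60.6 and 56.7 CPM, and AMOT 10.3 and 12.8 CPM against 12.4 and 14.8 CPM. In both, the groups overlapped. AMOTL2 took 73.43% and 73.46% of the family's counts per kilobase in the control and 76.5% and 77.1% with TINCR-HA-FLAG (exact permutation p = 0.33 with n = 2 per group, adjusted p = 0.45).

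CCN1 and CCN2 encode secreted matricellular proteins and are the usual readouts of YAP1 and TAZ activity. CCN1 (ENSG00000142871.18, chr1:85580761-85583962, plus strand) had 112 and 130.1 CPM in the control and 121.5 and 157 CPM with TINCR-HA-FLAG. The groups overlapped, and the TINCR-HA-FLAG libraries differed by a ratio of 1.29, more than the 1.15-fold difference between groups. The log2 fold change was 0.21 (SE 0.14, 95% interval -0.10 to 0.51, adjusted p = 0.69). Leaving out the second TINCR-HA-FLAG library gave 0.001, leaving out the first gave 0.38, and leaving out the first control library gave 0.06.

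CCN2 (ENSG00000118523.6, chr6:131948176-131951373, minus strand) had the highest log2 fold change among the members, and any part of the 3 TEAD motifs of its window in this was not tested. It had 12.1 and 11.7 CPM in the control and 14.1 and 18.4 CPM with TINCR-HA-FLAG, from 198 to 409 counts per library. Both TINCR-HA-FLAG libraries were higher, with a log2 fold change of 0.46 (SE 0.17, 95% interval 0.07 to 0.84, adjusted p = 0.39). Without TINCR-HA-FLAG replicate 2 the value was 0.24. The log2 ratio of CCN1 to CCN2 per kilobase was 3.13 and 3.41 in the control and 3.04 and 3.02 with TINCR-HA-FLAG, and the groups did not overlap (exact permutation p = 0.33 with n = 2 per group, adjusted p = 0.45). In the CCN family CCN1 took 87.8% to 90.4% of the counts per kilobase in the 4 libraries.

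ANKRD1, an ankyrin repeat protein gene that is a known YAP1 target (ENSG00000148677.7, chr10:90912096-90921276, minus strand), was barely detected. Its counts were 1 and 4 in the control and 0 in both libraries with the construct. A count of 0 allows up to 0.16 and 0.14 CPM (3 counts) in the TINCR-HA-FLAG libraries, beside 0.06 and 0.24 CPM with the empty vector. It did not pass the filter, and at this depth a difference was not detectable. With no filter on low counts its edgeR adjusted p was 0.80. Its mean level of 0.037 CPM per kb was the lowest of the members, below LATS2 at 5.72.

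**Figure D4:**
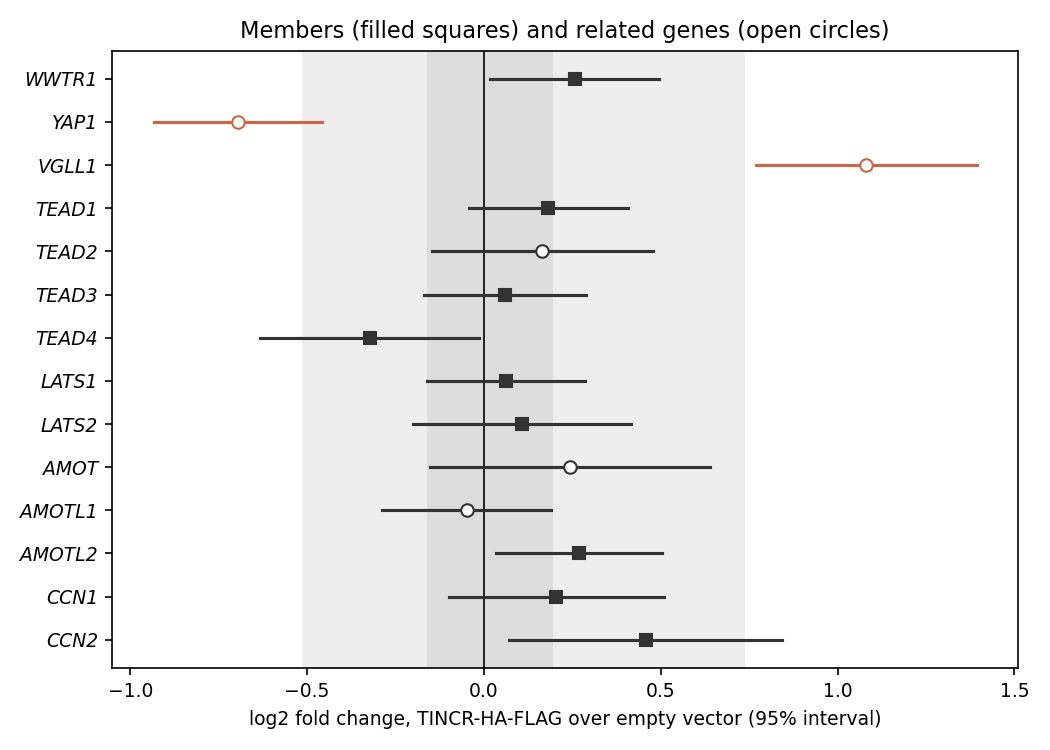
Squares (members) and open circles (related genes) give the log2 fold change of TINCR-HA-FLAG over empty vector on the x axis, with 95% intervals; orange marks an edgeR adjusted p under 0.05. The dark and light bands hold the middle 50% and 90% of all genes tested. YAP1 at -0.70 and VGLL1 at 1.08 are the called genes, and the members lie between -0.32 and 0.46.

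Among the nuclear cofactors outside the members, 1 gene was called higher. VGLL1, which encodes a TEAD-binding cofactor, rose from 11.2 and 11.9 CPM to 23.95 and 24.8 CPM (log2 fold change 1.08, SE 0.14, adjusted p = 0.0084), with both TINCR-HA-FLAG libraries at more than 2 times the level of the control. Of the 10 nuclear effectors and cofactors, all tested, VGLL1 rose and YAP1 fell, against 0.549% of all genes tested called in either direction, and the median log2 fold change was 0.17. This list and that of YAP and TEAD targets below were chosen with earlier results of these data known. VGLL2 had 4 and 2 counts against 28 and 29 (log2 fold change 2.95, adjusted p = 0.096), and VGLL3 30 and 29 against 64 and 61 (adjusted p = 0.43). VGLL4 had 40.4 and 49.3 CPM against 43.1 and 49.9 CPM.

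In a list of 22 YAP and TEAD target genes, 21 were tested, 3 rose and 1 fell, with a median log2 fold change of 0.18. The list moved both ways, with 13 positive and 8 negative log2 fold changes. Before adjustment 11 of the 21 were under 0.05 in edgeR, against 10.2% of all genes tested. Of all genes tested 0.453% were called higher and 0.0959% lower, and DESeq2 called 5 of the list against 1% of all genes. IGFBP3, which encodes a binding protein of insulin-like growth factors, rose from 77.8 and 95.02 CPM to 190.2 and 192 CPM (log2 fold change 1.15, adjusted p = 0.0027). CCDC80, which encodes a secreted matrix protein, rose from 24.9 and 28.8 CPM to 58.0 and 55.4 CPM (log2 fold change 1.08, adjusted p = 0.0040). TGFB2, a transforming growth factor gene, rose from 10.6 and 8.91 CPM to 25.8 and 22.2 CPM (log2 fold change 1.29, adjusted p = 0.0066). The tissue factor gene F3 fell from 422 and 403 CPM to 266 and 271 CPM (log2 fold change -0.62, adjusted p = 0.037). For F3 the adjusted p was above 0.05 when either control library was left out (0.18 and 0.12), when the first TINCR-HA-FLAG library was left out (0.058) or when low counts were kept in (0.069), with log2 fold changes of -0.60 to -0.65. Summed fibroblast and endothelial markers were also higher in both TINCR-HA-FLAG libraries, by the values given above, and their part in the list was not tested. None of these 4 is among the 10 members, and 17 targets outside the members were tested.

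The kinase and scaffold lists had no called gene in edgeR or DESeq2, which called 0.549% and 1% of all genes tested. Of 22 core kinases and activators, all tested, 3 had an unadjusted p under 0.05, against 10.2% of all genes tested, and the median log2 fold change was -0.02. MAP4K4, a kinase upstream of LATS1 and LATS2, had 73.7 and 73.1 CPM against 54.9 and 58.1 CPM (log2 fold change -0.38, adjusted p = 0.19). FRMD6, which encodes a membrane scaffold, had a log2 fold change of -0.34 (adjusted p = 0.34), and TNIK, another MAP4K kinase gene, -0.67 (adjusted p = 0.47). Of 22 tested junction, polarity and scaffold regulators, 3 had an unadjusted p under 0.05 and the median was 0.03. FAT4, an atypical cadherin gene, had 8.64 and 8.55 CPM against 14.6 and 13.3 CPM (log2 fold change 0.70, adjusted p = 0.14). SIKE1, which encodes a subunit of the STRIPAK phosphatase complex, had a log2 fold change of 0.27 (adjusted p = 0.39).

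SRF and its MRTF cofactors are another input to CCN1 and CCN2. Of 19 tested genes in the list of SRF, MRTF and their targets, 0 were called by edgeR or DESeq2. Of all genes tested, edgeR called 0.549% and DESeq2 1%. Before adjustment 2 of the 19 were under 0.05 in edgeR, against 10.2% of all genes tested. The median log2 fold change of the list was -0.11. FHL1, a LIM domain gene, had a log2 fold change of -0.54 (adjusted p = 0.44), the tropomyosin gene TPM1 0.29 (adjusted p = 0.45) and the transgelin gene TAGLN -0.62 (adjusted p = 0.50). In the CCN family 4 of 6 genes were tested, 0 were called by edgeR or DESeq2, and 1, CCN2, had an unadjusted p under 0.05. The shares over all genes tested are those given for the SRF list. CCN3, the next after CCN1 in order of p, had 21 and 21 counts against 31 and 41 (adjusted p = 0.74).

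**Figure D5:**
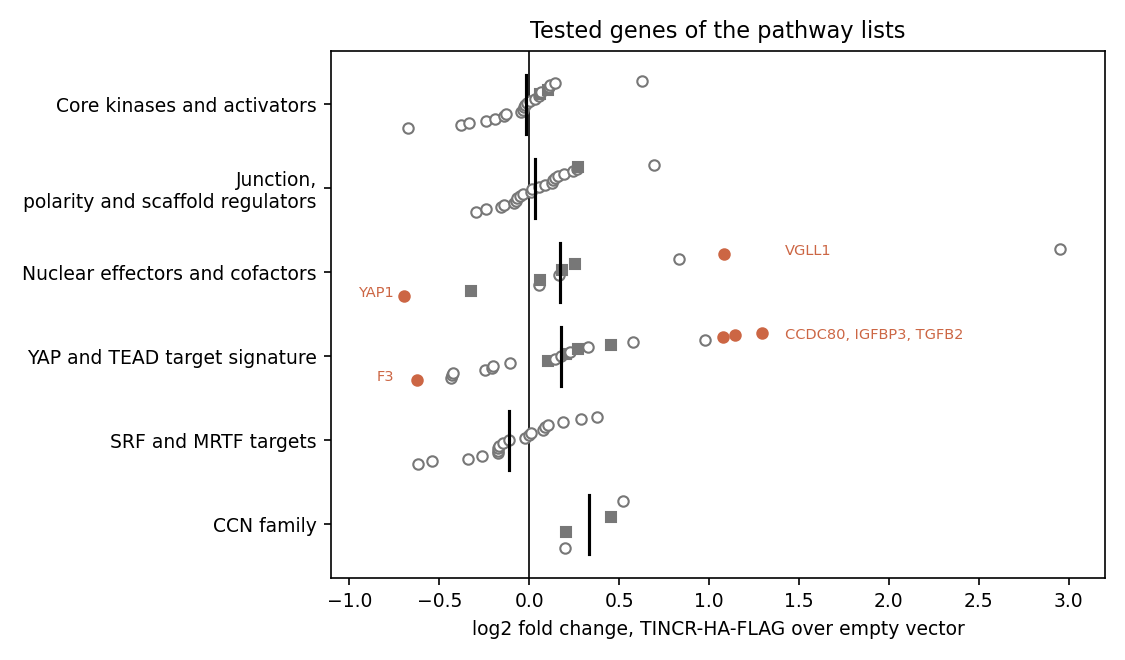
Each point is a tested gene of a pathway list, with its log2 fold change on the x axis; filled squares are members, orange circles genes with an edgeR adjusted p under 0.05, and black bars list medians. Among the called genes, VGLL1, IGFBP3, CCDC80 and TGFB2 lie above 1 and YAP1 and F3 below -0.6. VGLL2 at 2.95, TNIK at -0.67 and TAGLN at -0.62 also lie beyond these values and were not called.

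Members also varied between replicates. Replicate 2 was above replicate 1 for 7 of the 9 tested members with TINCR-HA-FLAG and for 6 of 9 with the empty vector, against 48.5% and 49.6% of all genes tested. The ratio between the TINCR-HA-FLAG replicates was 1.33 for TEAD4, 1.31 for CCN2, 1.29 for CCN1 and 1.25 for LATS2, and at most 1.10 for WWTR1, TEAD1, TEAD3, LATS1 and AMOTL2. Genes annotated as overlapping a member (12 genes, at 6 members) had at most 29 counts in any library, whereas the tested members had 198 to 3482.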

How the data were processed

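Total RNA was isolated on RNeasy columns and NEBNext Ultra libraries were prepared, per the labels' protocols. The authors deposited raw read counts, whole numbers for each Ensembl gene. STAR 2.7.9a, DESeq2 1.32.0 and bcl2fastq 2.20.0.422, with the build GRCh38, appear in the submitters' processing notes, without roles. How reads were counted, on which strand and against which annotation is not given in the sources used here, so reads of antisense genes cannot be told apart. The table has 12 other library columns, which belong to none of the 4 samples and were left out. Columns were matched to samples on cell line, construct and replicate number, since the headers shorten the construct name.

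Symbols came from a reference table (60507 of 60649 rows matched) and positions and lengths from GENCODE 29 (GRCh38, 58381 rows). Counts were filtered with filterByExpr, scaled by TMM and fitted in R 4.3.3 by edgeR 4.0.16, with its robust quasi-likelihood test (non-legacy, 2 residual degrees of freedom). Benjamini-Hochberg adjustment covered all 18771 genes, at a threshold of 0.05. Each SE is the log2 fold change divided by the square root of F. Levels between genes are CPM per kilobase of the union of exons. The intervals and the 3-count limit cover only the libraries and counting error, since reads carry no molecular identifiers.

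The members and lists were chosen with earlier results of these data known. All 10 members are named, with YAP1, TEAD2, AMOT, AMOTL1 and TINCR, every called gene of a list, or the 3 with the smallest p where none was called. VGLL2, VGLL3, VGLL4 and the genes of the closing section were named after their values were seen. Alternatives were DESeq2 1.42.0, RLE factors, library totals, other filters, the replicate number as a block, another gene length and leaving out each library.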

Additional observations from a re-analysis of the deposited data

How the results depend on the processing

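Among the log2 fold changes of the members, YAP1, VGLL1 and the called targets under each alternative, 135 kept their direction and side of the threshold, 7 gained a call, 6 lost one and 2 changed sign, both for LATS2, whose log2 fold change ran from -0.072 to 0.26 with 1 library left out. The number of members called, 0, held under DESeq2, RLE factors, library totals and both other filters. It ran from 0 to 1 with 1 library left out, the 1 being TEAD4 without TINCR-HA-FLAG replicate 2. The number of all genes called, 103, was 188 in DESeq2, 53 with no filter on low counts and 124 to 386 with 1 library left out. The 6 calls in the pathway lists ran from 5 to 10 with 1 library left out and were 7 in DESeq2 and 4 with no filter. With the replicate number as a block, 6 members were called (WWTR1, TEAD1, CCN1, CCN2 and AMOTL2 higher, TEAD4 lower, adjusted p from 0.00017 to 0.021), as were 38 list genes and 2633 genes in all. The labels do not say that a number pairs libraries. The correlation of the replicate deviations of the groups was 0.37, over genes. The block leaves 1 residual degree of freedom, and the spread was then pooled fully over genes.

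With 1 library left out, some differences in share (TINCR-HA-FLAG minus empty vector, percentage points) changed sign. They ran from -3.43 to 2.28 for LATS1, from -2.28 to 3.43 for LATS2, from -0.28 to 0.53 for AMOT and from -0.080 to 0.063 for CCN5. The difference in the log2 ratio of LATS2 to LATS1 ran from -0.15 to 0.22. The other shares and ratios kept their direction with another gene length and with each library left out, the alternatives run for them. The causes were not tested.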

Other observations

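Genes with TEAD motifs were also counted beyond the pathway, a look chosen after seeing the data. Of the 12015 tested genes with a RefSeq window, 61 were called higher and 13 lower (0.616%). For a gene with several windows, the window with most matches was used. Of the 10454 with 0 GGAATG matches, 46 were called higher and 11 lower (0.545%). Of the 1561 with at least 1 match, 15 were called higher and 2 lower (1.089%). Of the 114 with at least 2 GGAATG matches in a window, 5 were called, all higher (4.39%), with a median log2 fold change of 0.04. They were LCN2, which encodes a siderophore-binding lipocalin (log2 fold change 1.74), ARPIN, an Arp2/3 inhibitor gene (1.21), MYPN, which encodes a sarcomere protein (1.09), LIMCH1 (0.91) and FGD3 (0.75). Their edgeR adjusted p lay between 0.00052 and 0.042. Of the 10 with at least 3 matches, among them CCN2, 0 were called by edgeR. No test of this difference was made.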
